A study of Mus musculus with 24 samples.

Results

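Transcripts of retinal neurons and of heart microvessels were compared in 6 of the 24 tissue regions of the series. The 6 regions were chosen by their sample titles: 3 were neuronal regions of the retina and 3 were cardiac microvascular endothelial cell (MEC) regions, all from non-diabetic mice and all on 1 plate and 1 sequencing run. The study examined MECs of the retina (retMECs), kidney (renMECs) and heart together with retinal neuronal cells in early diabetes, with 3 mice per condition. The mice were male C57BL/6J. Non-diabetic mice had received mock injections of citrate buffer over 5 days from 8 weeks of age, and tissue was taken 2 months later. The 6 diabetic regions used below for a repeat of the comparison came from mice that had received streptozotocin, which destroys the insulin-producing beta cells, at 50 mg/kg over the same 5 days. In the titles of diabetic heart regions 2 and 3 the heart is given without MECs, so all heart groups are called heart regions here.

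NeuN is a protein of neuronal nuclei, and in the retina it is found mainly in ganglion cells and in some amacrine cells. CD31 is a surface protein by which endothelial cells, the lining of blood vessels, adhere to each other. In the GeoMx assay, probes that carry a barcode are hybridised to the RNA of a fixed section, and ultraviolet light then releases the barcodes of chosen areas only. NeuN+ areas were released for the neuronal regions, without separation of neuron types, and CD31+ areas for the heart regions. A released area can hold RNA of neighbouring cells, and capillaries of the heart lie directly against muscle cells. In such bulk regions, fewer cells of a type and less RNA per cell cannot be told apart. Cell type, organ and the section that each region came from also changed together, so their contributions to a difference cannot be told apart. The probe IDs are not paired with gene symbols in the tables used here, so the labelled cell types could not be checked against marker genes and probes are described by ID.

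The total count per region was 391604, 211272 and 521366 in heart regions 1 to 3 and 372615, 788146 and 244551 in neuronal regions 1 to 3. The ranges of the 2 groups overlapped. All 6 regions had aligned shares of 95.5 to 96.7% of their reads. The share of reads merged into another read of the same molecule was 91.3 to 96.0% in heart regions and 74.1 to 91.0% in neuronal regions. The diabetic regions were shallower, at 115269 to 153319 counts in the heart and 78053 to 168298 in neuronal regions.

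Neuronal and heart regions differed in many probes and in both directions. Of the 16012 probes tested, 3742 (23.4%) passed a threshold of 0.05 for the adjusted p of edgeR's quasi-likelihood test (Benjamini-Hochberg, over all probes tested), and these are referred to as called. Of these, 1820 (11.4%) were higher and 1922 (12%) were lower in neuronal regions. Scaled counts are counts divided by the region's 75th percentile and set to a common percentile of 19 counts. The scaled counts of the 2 groups did not overlap for 5533 probes (34.6%), of which 2413 (15.1%) were higher and 3120 (19.5%) lower in neuronal regions. The balance of the directions depended on the scaling, the count filter and the depth. With TMM factors 2368 probes were higher and 1297 lower, and with total counts 1642 were higher and 2267 lower. DESeq2, which differs in test and filter as well as scaling, called 1461 higher and 510 lower. The median log2 difference over all probes tested was -0.15 with the 75th percentile and -0.01 with TMM, and the log2 differences below can be read against it.

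Among called probes the median difference was of similar size in both directions. On the log2 scale the extremes were 9.79 and -7.08. The median log2 difference was 1.09 among probes called higher in neuronal regions and -1.15 among those called lower. A difference over 2-fold was found for 1082 probes (59.5%) of the higher and 1364 (71.0%) of the lower calls. A difference over 64-fold was found for 11 probes that were higher and 9 that were lower in neuronal regions. Called and over 4-fold were 436 probes (2.72%), with 245 (1.53%) higher and 191 (1.19%) lower. For these probes TMM factors gave 290 higher and 145 lower and scaling to the total count 222 and 218, so neuronal regions had the larger number in each of these 3 scalings. DESeq2 gave 302 and 133. Without neuronal region 2, the deepest of the 6, the split turned to 240 higher and 274 lower.

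**Figure D1:**
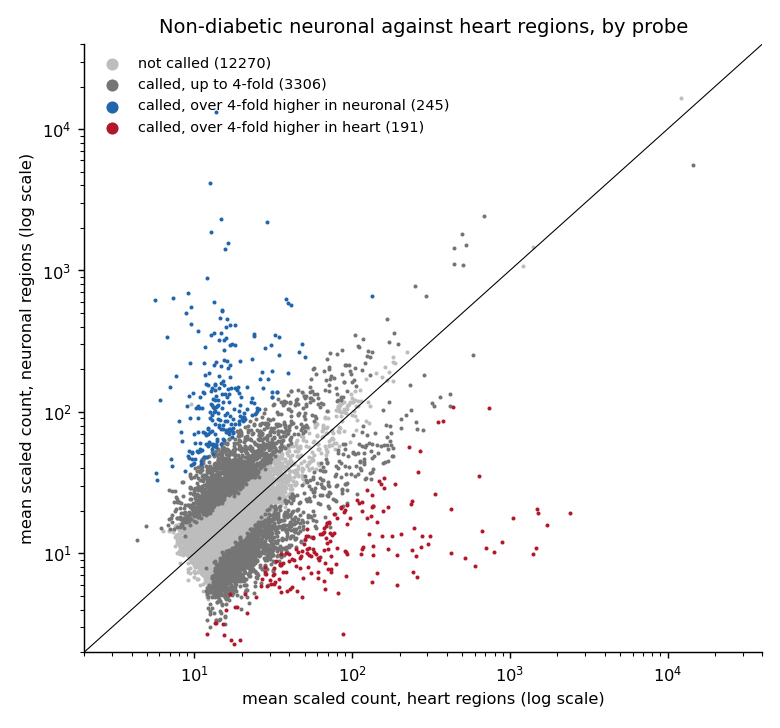
Mean scaled count of each of the 16012 probes tested in the 3 non-diabetic heart regions (horizontal, log scale) and the 3 non-diabetic neuronal regions (vertical, log scale), with equal values on the line. Blue points are the 245 probes called over 4-fold higher in neuronal regions and red points the 191 over 4-fold higher in heart regions, and many of both lie near the bulk of all probes on the axis where they are low.

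The share of probes called and the direction of the calls differed with the level. Of the 170 probes with a mean level under 0.5 times the 75th percentile 52 were called (30.6%), 1 higher and 51 lower in neuronal regions. Probes this low can pass the count filter through the group where they are high alone. The share and direction of the calls in this band therefore cannot be read as an effect of level. Among probes at 0.5 to 1 times the percentile, 1452 of 11128 (13.1%) were called, 265 higher and 1187 lower in neuronal regions. The cut of the filter lies within this band, so its probes can also pass through 1 group alone. Its share and direction cannot be read as an effect of level either. Between 1 and 2 times the percentile 1415 of 3652 (38.8%) were called, and 992 of them were higher in neuronal regions. At 8 times the percentile or more 114 of 127 probes (89.8%) were called, 76 higher and 38 lower, and 54.3% of the 127 were over 4-fold different. At 2 times the percentile or more, the calls were 562 higher and 261 lower in neuronal regions. Higher calls were the majority there also with TMM factors (615 and 239), with the total count (547 and 272) and with DESeq2 (571 and 229). Among the remaining calls the majority depended on the setting. They were 1258 higher and 1661 lower with the 75th percentile and 1095 and 1995 with the total count, but 1753 and 1058 with TMM and 890 and 281 with DESeq2.

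**Figure D2:**
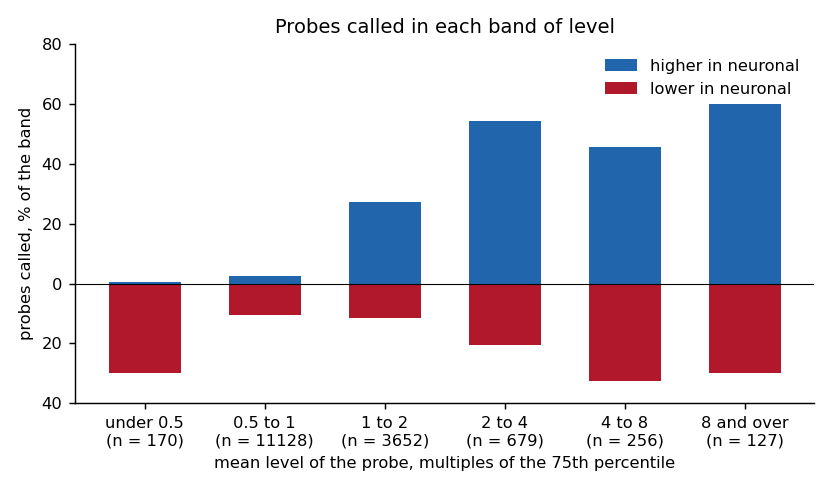
Share of the probes called in each band of mean level (horizontal, in multiples of the 75th percentile, with the number of probes), as a percent of the band. Probes of the bands below the percentile can pass the count filter through the group where they are high alone. Blue bars upward are probes higher in neuronal regions and red bars downward probes lower, and with the 75th percentile scaling the lower calls are the larger part below the percentile and the higher calls the larger part above it, while with TMM or DESeq2 higher calls are also the majority of all calls below 2 times the percentile.

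A few very abundant probes separated the 2 groups almost completely. RTS0075449, the probe with the smallest p and also the second most counted in neuronal regions, had 11901, 20412 and 8230 counts in neuronal regions 1 to 3 and 18, 4 and 19 in heart regions 1 to 3. It held 3.05% ± 0.407 (SD, n = 3) of all counts in neuronal regions and 0.00338% ± 0.00137 (SD, n = 3) in heart regions. Its log2 difference was 9.79 with a standard error of 0.31 (edgeR adjusted p = 1.95e-60). Among the probes called higher it also had the highest mean scaled count in neuronal regions, and RTS0067937 came next to it in this order. RTS0067937 had 4018, 6852 and 2268 counts in neuronal regions and 16, 3 and 19 in heart regions, a log2 difference of 8.23 with a standard error of 0.29 (edgeR adjusted p = 8.85e-56). Neither probe's groups overlapped.

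In the other direction RTS0070622 had the smallest p. It had 1841, 1371 and 3346 counts in heart regions 1 to 3 and 17, 34 and 11 in neuronal regions 1 to 3, and was the third most counted probe of the heart. Its log2 difference was -6.97 with a standard error of 0.27 (edgeR adjusted p = 4.01e-52). In neuronal regions its scaled count of 18.5 to 20.2 lay at the 75th percentile of all probes.

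RTS0067474, the most counted probe of the heart regions, was abundant in both groups. It had 11596, 7125 and 22248 counts in the heart and 5370, 8610 and 3248 in neuronal regions, and its scaled counts of 11596 to 18379 and 4674 to 6377 did not overlap. Its log2 difference was -1.39 with a standard error of 0.21 (edgeR adjusted p = 1.51e-08). In 1 model of all 24 regions its edgeR adjusted p was 0.0591. The probe had 0 counts in all 6 retMEC regions, which were the only regions of the other plate. It was 1 of 11 probes without a count on that plate. Without these 11 probes, an alternative chosen after seeing the data, 3724 probes were called, 1812 higher and 1912 lower in neuronal regions.

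**Figure D3:**
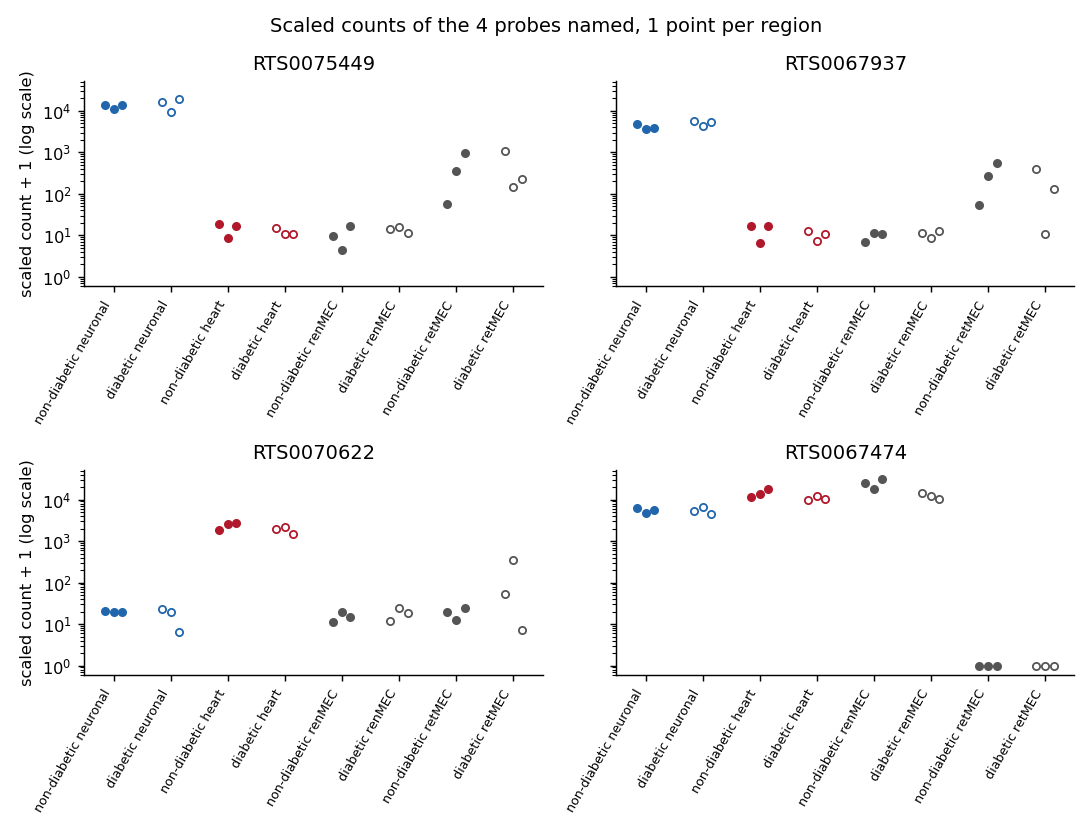
Scaled count plus 1 (vertical, log scale) of RTS0075449, RTS0067937, RTS0070622 and RTS0067474 in each of the 24 regions, 1 point per region, filled for non-diabetic and open for diabetic mice. Blue is neuronal, red is heart and grey is kidney or retinal MEC regions. Each probe separates neuronal from heart regions in both conditions, RTS0067474 by the smallest fold, and RTS0067474 lies at 0 in all 6 retMEC regions.

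The most counted probes of the 2 groups were largely different ones. The lists of the 10 most counted probes of each group shared 2 probes, those of 100 shared 22 (22.0% of each list) and those of 1000 shared 439 (43.9%). The shared pair of the top 10 were RTS0067474 and the first probe of the neuronal list, which held 3.85% ± 0.618 (SD, n = 3) of the counts in neuronal and 2.98% ± 0.141 (SD, n = 3) in heart regions (edgeR adjusted p = 0.101). Of the other 8 probes of the neuronal list, 6 were over 4-fold higher in neuronal regions. Of the other 8 of the heart list, 6 were over 4-fold higher in heart regions, and the remaining ones, at 0.346% and 0.297% of heart counts, held 0.342% and 0.249% of neuronal counts and were not called.

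Counts were spread over fewer probes in neuronal than in heart regions. The 100 most counted probes held 22.3, 19.5 and 20.9% of all counts in neuronal regions 1 to 3 and 14.3, 16.8 and 18.0% in heart regions 1 to 3. All neuronal regions were above all heart regions, with means of 20.9% ± 1.37 and 16.4% ± 1.89 (SD, n = 3 each) and a difference of 4.53 percentage points (exact two-sided permutation p = 0.1, the smallest that 3 against 3 regions allow). Without the 11 probes absent from the other plate the means were 19.9% and 13.4%, a difference of 6.55 points. The 1000 most counted probes held 37.5% ± 1.48 and 29.6% ± 2.61 (SD, n = 3 each), again without overlap. The single most counted probe held 3.85% of neuronal and 3.53% of heart counts, and these values overlapped (exact permutation p = 0.6). More than 100 times the 75th percentile was reached by 7 to 9 probes in neuronal regions and by 2 to 4 in heart regions.

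More probes were left with low counts in neuronal regions. After each region was thinned to the lowest total of 211272 counts, 19962, 20013 and 20079 probes had a count in neuronal regions 1 to 3 and 20166, 20147 and 20153 in heart regions 1 to 3. The means were 20018 ± 58.7 and 20155 ± 9.71 (SD, n = 3 each; exact two-sided permutation p = 0.1, the smallest possible). At least 3 counts after thinning were found for 17758 to 18365 probes in neuronal and 19374 to 19661 in heart regions. Before thinning 20122 to 20184 and 20147 to 20185 probes had a count, and these ranges overlapped. Most probes lay close together in level. Within 2-fold of the region's 75th percentile were 56.6 to 63.2% of probes in neuronal and 67.3 to 84.2% in heart regions. Whether the counts of these probes come from transcripts or from background binding was not tested.

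On average, regions of a group resembled each other more than regions of the other group. The mean Euclidean distance of scaled counts was 5254 between heart regions, 5332 between neuronal regions and 19216 between the groups, a ratio of 3.63 (exact one-sided permutation p = 0.1, the smallest of 10 divisions). No distance within a group, at most 7578, reached the smallest distance between groups of 15686. The ratio was 1.49 on the log2 scale, where the abundant probes weigh less. After thinning, the Spearman correlation across 20186 probes was 0.577 to 0.603 between neuronal regions, 0.406 to 0.417 between heart regions and 0.328 to 0.354 between the groups. On the counts as deposited, which differ in depth, it was 0.629 to 0.740 between neuronal regions. It was 0.466 to 0.540 between heart regions and 0.352 to 0.474 between the groups there, and these ranges overlapped. The variation within a group beyond counting error was 12.4% in neuronal and 11.3% in heart regions, as edgeR's biological coefficient of variation. Between replicates the counts differed with a chi-square of 1.09 to 1.37 per degree of freedom. This statistic cannot tell regions of separate mice from separate areas of the same mouse.

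The 436 probes over 4-fold different held a minor part of all counts even where they were high. The 245 probes higher in neuronal regions held 15.0% ± 1.06 (SD, n = 3) of neuronal and 0.993% ± 0.0300 (SD, n = 3) of heart counts. The 191 probes higher in heart regions held 8.22% ± 1.12 (SD, n = 3) of heart and 0.629% ± 0.0137 (SD, n = 3) of neuronal counts. These values chose the probes and are given as a description. Where they were low, 137 of the 245 (55.9%) and 136 of the 191 (71.2%) stayed below the 75th percentile in all 3 regions, and 0 had no count in all 3. All 1820 probes called higher made up 34.6% ± 1.07 of neuronal and 10.2% ± 0.276 of heart counts, and all 1922 called lower made up 7.30% ± 0.250 and 24.7% ± 2.15 (SD, n = 3 each). The 12270 probes tested and not called held 50.6% ± 0.676 of neuronal and 54.4% ± 1.46 of heart counts (SD, n = 3 each).

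The same 2 sets of probes were then followed in regions that had not chosen them. In diabetic neuronal regions the 245 probes held 17.0 to 18.8% of all counts, and in diabetic heart regions 1.01 to 1.11%. The 191 probes held 8.00 to 9.26% in diabetic heart and 0.548 to 0.655% in diabetic neuronal regions. Both sets thus separated the diabetic groups without overlap. In renMEC regions of non-diabetic mice, on the same plate, the 245 probes held 1.14% ± 0.0425 (SD, n = 3), and the mean scaled count was nearer to the heart for 225 of them. The 191 probes held 2.83% ± 0.156 (SD, n = 3) there, and 108 of them were nearer to neuronal regions. In non-diabetic retMEC regions, on the other plate and run, the 245 probes held 1.54 to 4.69% and the 191 probes 1.17 to 2.07%. The plate's part in these retMEC values was not tested.

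**Figure D4:**
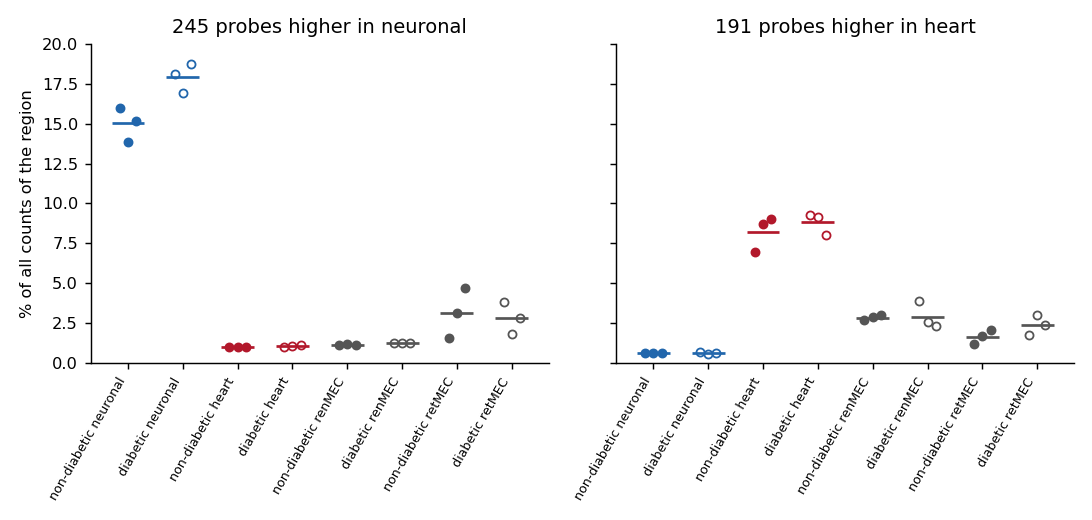
Share of all counts of a region (vertical, percent) held by the 245 probes over 4-fold higher in neuronal (left) and the 191 over 4-fold higher in heart regions (right), 1 point per region and the group mean as a line, filled for non-diabetic and open for diabetic mice. The 245 probes hold 13.9 to 18.8% in the 6 neuronal regions and at most 4.69% in the other 18.

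The question whether the difference recurred in diabetic mice was answered with separate regions and separate mice. In diabetic regions 1222 of 1835 probes tested (66.6%) were called by edgeR, 868 (47.3%) higher and 354 (19.3%) lower in neuronal regions. Called and over 4-fold were 484 probes (26.4%), with 324 (17.7%) higher and 160 (8.72%) lower. The lower depth left few probes above the count filter, and those that passed were abundant in at least 1 group. This share therefore cannot be set against the 23.4% of the deeper regions, and the splits by direction hold only for the probes that passed. The median log2 difference over these 1835 probes was 0.72. Over all 20185 probes with a count, non-overlapping probes were more often lower (11.8%) than higher (9.44%) in diabetic neuronal regions. All 245 probes of the neuronal set and all 191 of the heart set had means in the same direction in diabetic regions. The scaled counts of the diabetic groups did not overlap for 241 of the 245 (98.4%) and 177 of the 191 (92.7%) in that direction, where 9.44% and 11.8% of all 20185 probes with a count did so. The count filter left 230 of the 245 and 135 of the 191 in the diabetic test. At this depth a probe can pass through the group where it is high alone, so calls among those that passed are not counted here. Across the 1835 probes tested in both conditions the log2 differences had a Pearson r of 0.955 and a Spearman rho of 0.932, given as a description since probes are not independent and the filter favoured abundant ones.

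The 4 probes named above kept their direction in diabetic regions. RTS0075449 had 6073, 2021 and 7253 counts in diabetic neuronal regions and 6, 3 and 3 in diabetic heart regions, a log2 difference of 10.35 with a standard error of 0.38 (edgeR adjusted p = 7.48e-19). RTS0067937 had 2052, 930 and 1975 counts against 5, 2 and 3, a log2 difference of 9.02 (edgeR adjusted p = 2.34e-18). RTS0070622 had 801, 683 and 460 counts in the heart and 8, 4 and 2 in neuronal regions, a log2 difference of -6.91 (edgeR adjusted p = 1.55e-15). RTS0067474 had 4123, 3944 and 3315 counts in the heart and 2005, 1403 and 1641 in neuronal regions, a log2 difference of -0.99 (edgeR adjusted p = 0.000273).

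**Figure D5:**
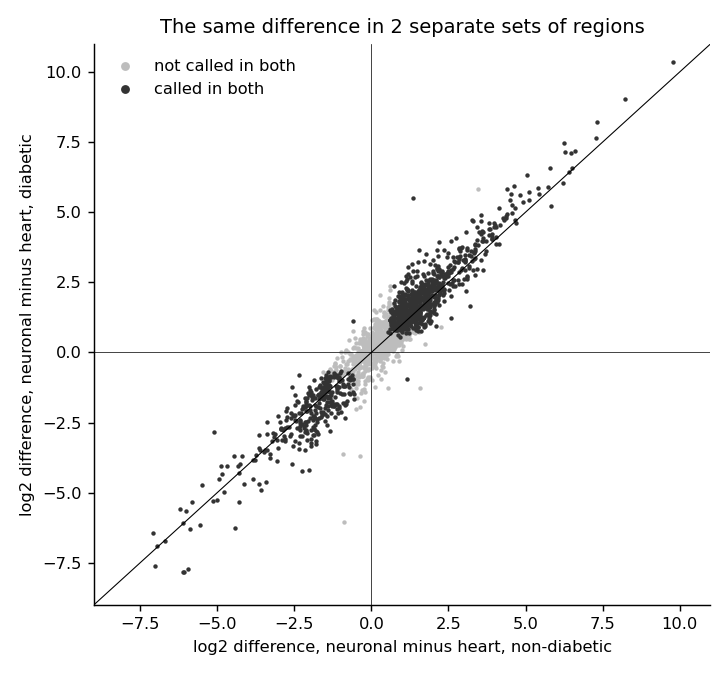
Log2 difference, neuronal minus heart, of the 1835 probes tested in both conditions, in non-diabetic (horizontal) and diabetic (vertical) regions, with equal values on the line. Dark points are probes called in both conditions, 2 of them with opposite signs. The count filter and the calls chose these probes, so their place along the line is a description only.

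A change of the neuronal against heart difference with diabetes was tested directly in 1 model of the 12 regions. Of 6220 probes tested 2 (0.0322%) were called by edgeR, with unadjusted p under 0.05 for 241 probes whose neuronal minus heart log2 difference changed upward and 151 whose difference changed downward in diabetic regions. Of the 436 probes over 4-fold different, 423 could be tested and 0 were called. Their median absolute change was 0.41 on the log2 scale, beside a median absolute difference of 2.62. With DESeq2 0 probes were called, with 190 and 287 at an unadjusted p under 0.05, and with TMM or total-count scaling 8 were called, 1 upward and 7 downward.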

How the data were processed

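Counts were deposited by the authors as 1 list per region, made with the GeoMx NGS Pipeline 2.3.4: reads of probe barcodes were aligned and 1 count was kept per unique molecular identifier. The deposited counts were not scaled, and an unlisted probe was taken as 0. The genome build named in the submitters' notes does not enter probe counting. The 20186 probes with a count in any of the 24 regions were used, and 0 probe IDs matched the gene table, so marker lists were not tested.

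The main test was edgeR 4.0.16's quasi-likelihood test (robust, R 4.3.3) scaled by the 75th percentile of all probes (edgeR's upper-quartile factors). Probes below edgeR's expression filter, set to 10 counts, were dropped, and p-values were adjusted by Benjamini-Hochberg over all probes tested, with 0.05 as the threshold. The test was also run on simulated data with the same spread for all probes, and the outcome is not given here. The methods describe scaling to the 75th percentile and Student's test on scaled values, which was run as an alternative, as were TMM, DESeq2 1.42.0, thinning, other filters and leaving out each region. The paper first excluded genes flagged in quality control. That step was not repeated, so Student's test ran here on all probes with a count. Single values of the groups were compared by exact permutation in scipy 1.17.1. In each direction the probe with the smallest p and then the called probe with the highest mean scaled count were named. The 2 probes whose difference changed with diabetes were named after their values were seen. The regions, sets and tests were chosen with earlier results of these data known.

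Regions are not tied to mice by the labels. A term for the mouse was therefore not possible, and p-values do not account for regions of different organs that share a mouse. Same-numbered heart and neuronal regions did not deviate together, with correlations of -0.01, 0.01 and -0.01 in non-diabetic mice. Counting error is a large part of such deviations, so these correlations cannot decide whether same-numbered regions share a mouse. Totals of 78053 to 788146 counts in the 12 regions, with 75th percentiles of 4 to 35 counts, limit the precision of single probes, and counting intervals cover counting error only.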

Additional observations from a re-analysis of the deposited data

Results flagged for a closer look

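The neuronal against heart difference of 2 probes changed with diabetes by the test of the change itself. For RTS0064611 the log2 difference was larger by 4.40 in diabetic regions, with a standard error of 0.88 (edgeR adjusted p = 0.00608). It had 44, 63 and 20 counts in non-diabetic neuronal, 16, 5 and 22 in non-diabetic heart, 20, 14 and 23 in diabetic neuronal and 1, 0 and 0 in diabetic heart regions. With 1 count in the diabetic heart the fitted value depends on the prior count. The diabetic ratio of the summed counts, 57 to 1, each divided by the group's summed 75th percentiles, was 63.3 with a 95% exact interval of 10.9 to 2545, against a fitted 2.53-fold difference in non-diabetic regions. For RTS0065593 the log2 difference changed by -2.10, with a standard error of 0.46 (edgeR adjusted p = 0.0292). It had 32, 126 and 57 counts in non-diabetic neuronal, 28, 14 and 40 in non-diabetic heart, 7, 5 and 10 in diabetic neuronal and 16, 12 and 19 in diabetic heart regions. Its difference was thus 1.16 on the log2 scale in non-diabetic and -0.94 in diabetic regions. Without diabetic heart region 3, 0 probes were called (edgeR, with 358 and 220 at an unadjusted p under 0.05), and without non-diabetic heart region 2 or non-diabetic neuronal region 2 or 3, 1 probe was called. Without diabetic heart region 2 there were 2 calls, both downward, so RTS0064611 was not among them. Without diabetic neuronal region 1 there were also 2 calls, of which 1 was shared with the 2 above.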

How the results depend on the processing

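The count of 3742 calls was 1971 with DESeq2, 2040 after thinning and 1252 where at least 10 counts were required in every region, which left fewer probes to test. The methods' t-test, run without the paper's quality filter, called 4085 probes at its p and fold thresholds and 718 after Benjamini-Hochberg adjustment. With at least 10 counts in every region, 103 probes were called and over 4-fold, beside 436. In diabetic regions the 1222 calls became 181 with that filter (16 over 4-fold, beside 484), 620 after thinning, and 2858 by the methods' t-test or 214 after adjustment. Total-count scaling gave 261 higher and 205 lower probes over 4-fold there, beside 324 and 160. The 2 probes with a change under diabetes became 8 with TMM, 8 with total-count scaling, 0 with DESeq2, 5 with at least 10 counts in every region and 1 in the model of all 24 regions. Leaving out 1 region at a time gave 2566 to 3936 calls in non-diabetic regions (440 to 514 over 4-fold), 1199 to 1696 in diabetic regions (539 to 592) and 0 to 3 for the change. It gave distance ratios of 3.30 to 4.08, share differences of 3.50 to 5.35 points and differences in probes with a count of -168 to -109. Whether the replicate numbers pair the regions is not known, and with the number as a block 3190, 1209 and 3 probes were called in the 3 tests. The signs of the 4 named probes held in all alternatives run. In the diabetic regions, with 75th percentiles of 4 to 8 counts, single probes rest on a few counts.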

Other observations

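The lists of the 2 plates did not hold the same probes. A count was found for 20175 probes on the plate of the 6 retMEC regions and for 20185 on the plate of the other 18 regions. The 11 probes without a count in the retMEC regions had 62 to 227709 summed counts on the other plate, and each of the remaining probes had at least 5 in the retMEC regions. RTS0067474 held most of these counts. The 11 probes took 1.08 to 6.22% of all counts of a region, and 0 of them were over 4-fold different between non-diabetic neuronal and heart regions.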
